A study of Homo sapiens with 8 samples.

Results

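The mRNA levels of 39 genes that copy DNA were followed through 8 RNA-seq libraries of 2 cholangiocarcinoma (CCA) cell lines, SNU1079 and SSP25. Each line was grown for 48 h with BETp (ARV825 at 40 nM), with mTORi (AZD8055 at 50 nM), with their combination, for which the labels give no doses, or with vehicle (0.01% DMSO). ARV825 is a PROTAC that sends BET bromodomain proteins, readers of acetylated histones that help RNA polymerase II into elongation, to the proteasome, and AZD8055 inhibits the kinase mTOR, a driver of growth and protein synthesis. The labels give the tissue of both lines as liver and their genotype as wildtype, although the study's panel sequencing found mutations of cancer genes in SNU1079. There was 1 library for each line and treatment, so the lines stood in for replicates, and within a line a drug effect cannot be told apart from a difference between single cultures. The p-values of comparisons between treatments measure the spread between the lines. Those of drug effects averaged over the other drug also take in how far the combination lies from the sum of both drugs. Those of line differences in a drug effect rest on that departure alone, within each line. The 39 genes were given as a list of replication genes and found by symbol in both tables of 56269 genes, where all 39 reached the filter of 1 TPM in at least 2 libraries that 16060 genes passed. TPM, a share of all transcripts of a library, is scaled for gene length, so levels can be set side by side between genes, but it keeps no read depth, and the depth behind a value is unknown.

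DNA is copied once per cell cycle. In G1 the origin recognition complex, CDC6 and CDT1 load rings of MCM2 to MCM7 on origins, and at the start of S phase CDC45 and GINS join the ring to make the working helicase. Primase and the replicative polymerases then copy both strands behind it, held by the PCNA clamp that the RFC loader places, while ribonucleotide reductase, thymidylate synthase and thymidine kinase feed the nucleotide pool. Most of these genes are known targets of E2F factors, which the RB protein holds back until a cell commits to divide, so their mRNA is known to be high in cycling cells. In bulk RNA, fewer cells in S phase and less mRNA in each of them cannot be told apart.

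The 39 genes moved mostly as a block in SSP25 and, with mTORi, in SNU1079, and the direction with mTORi differed between the lines. With BETp in SNU1079 the members lay on both sides of vehicle. There 2 lay at least 0.5 above it in log2(TPM + 1), against 5.34% of all genes, and 1 under it, against 8.36%. Set against vehicle, the mTORi library of SNU1079 was higher for 38 of 39 members, with a median difference of 0.40 in log2(TPM + 1), and the mTORi library of SSP25 was lower for 37 of 39, with a median of -0.43. The combination was lower than vehicle for 38 of 39 in SSP25, with a median of -0.94, while in SNU1079 the median was -0.16 as deposited and 0.05 with quantile normalization. Over all genes tested, the medians of these mTORi and combination differences ran between -0.18 and -0.10. The mTORi library was higher in SNU1079 and lower in SSP25 for 36 of 39 members, against 20.3% of all genes. The combination was lower in both lines for 29 of 39, against 51.0%. Summed over the members, the mRNA level in SNU1079 was 1610 TPM with BETp, 2123 TPM with mTORi and 1453 TPM with the combination, against 1540 TPM with vehicle. In SSP25 the sum was 1184 TPM with BETp, 1172 TPM with mTORi and 813 TPM with the combination, against 1557 TPM with vehicle. The vehicle libraries of the lines thus lay close together in summed level, and the treated ones lay apart. Such a sum is weighted to the abundant members and does not show that all moved. Single members differed in vehicle in either direction: PCNA had 238 TPM in SNU1079 and 168 TPM in SSP25, and RRM1 had 30.2 and 105 TPM. The share of TPM from the mitochondrial genome also differed there, at 14.4% in SNU1079 and 5.99% in SSP25.

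**Figure D1:**
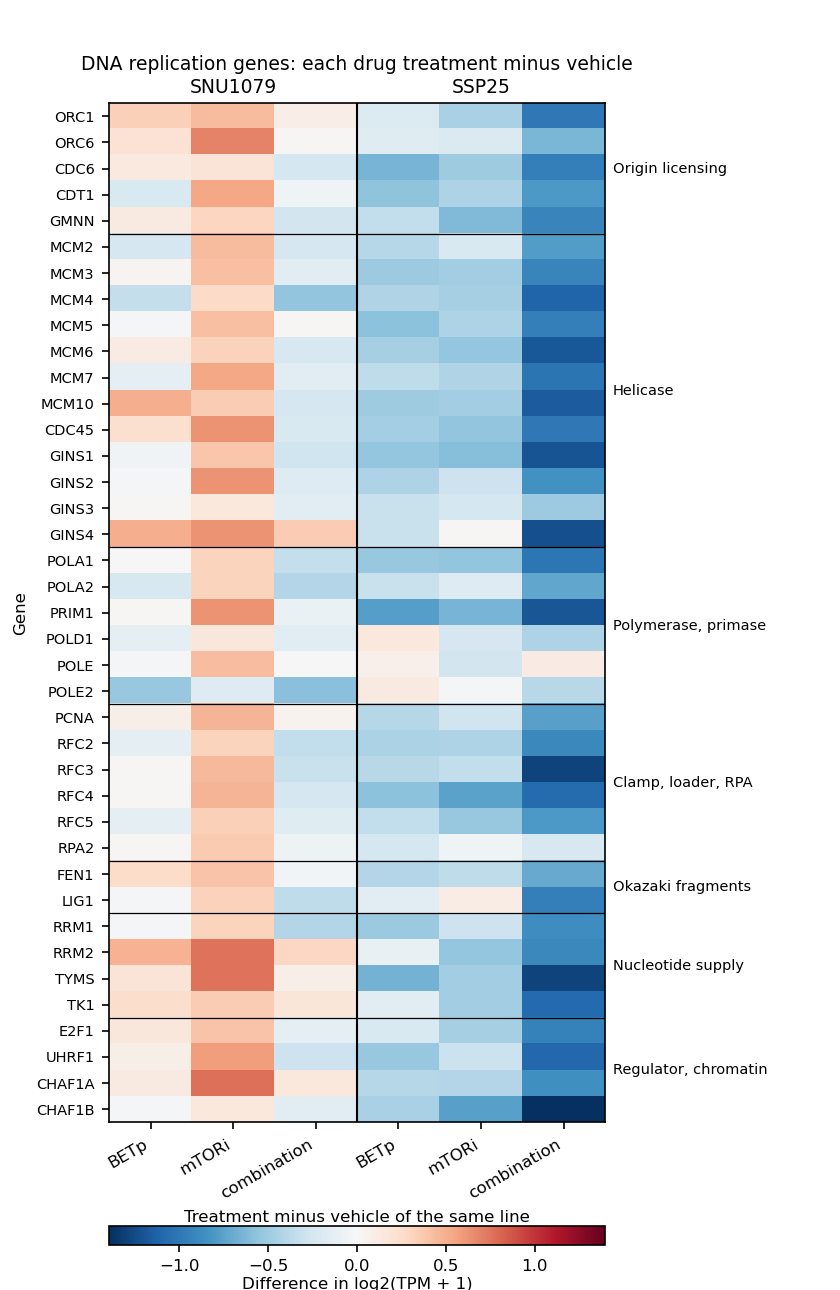
Difference in log2(TPM + 1) between each drug treatment and vehicle of the same line, with 1 row per gene, 3 columns per line and the colour scale below. The mTORi column is red for 38 of 39 genes in SNU1079 and blue for 37 of 39 in SSP25, and the combination column of SSP25 is the darkest blue. Each cell compares 2 single libraries.

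Origin licensing was described by 5 members. ORC6, a subunit of the origin recognition complex, stood at 18.2 TPM with BETp, 26.1 TPM with mTORi and 15.9 TPM with the combination in SNU1079, against 15.7 TPM with vehicle. In SSP25 its level was 18.6, 18.1 and 13.1 TPM with the same treatments, against 21.0 TPM with vehicle. CDT1, the loading factor that geminin blocks, reached 29.8, 51.1 and 33.3 TPM in SNU1079, against 34.8 TPM with vehicle. The mTORi library was the highest of SNU1079 for both genes, and the vehicle library the highest of SSP25. CDT1 stood in SSP25 at 14.5 TPM with BETp, 15.9 TPM with mTORi and 12.1 TPM with the combination, against 21.9 TPM with vehicle. GMNN, which encodes geminin itself, had 56.5, 63.8 and 43.2 TPM in SNU1079, against 51.6 TPM with vehicle. Its SSP25 libraries held 44.6, 36.7 and 29.6 TPM in that order, against 56.8 TPM with vehicle. The factor and its inhibitor therefore moved the same way under mTORi in each line. ORC1 ranged over all libraries between 3.47 and 7.93 TPM, and CDC6, the loader ATPase, between 13.8 and 37.5 TPM.

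The helicase was the largest group, with 12 members. The summed level of MCM2 to MCM7, the subunits of the ring, was 351 TPM with BETp, 506 TPM with mTORi and 323 TPM with the combination in SNU1079, against 379 TPM with vehicle. In SSP25 it was 275, 281 and 186 TPM, against 373 TPM with vehicle. The combination library of SSP25 thus held 0.416-fold (MCM6) to 0.576-fold (MCM2) of the vehicle level of each ring subunit, as a ratio of TPM. MCM7 had 81.2 TPM with BETp, 130 TPM with mTORi and 79.7 TPM with the combination in SNU1079, against 89.2 TPM with vehicle. Its levels in SSP25 were 91.8, 87.8 and 57.3 TPM, against 117 TPM with vehicle. MCM6 had 47.7, 55.2 and 37.5 TPM in SNU1079 and 15.7, 14.8 and 9.13 TPM in SSP25 under the drugs in the same order, against vehicle levels of 44.1 TPM in SNU1079 and 21.9 TPM in SSP25. The ring holds its subunits in equal number, yet the ratio of MCM7 to MCM6 mRNA ran from 1.70 to 2.36 over the SNU1079 libraries and from 5.35 to 6.28 over those of SSP25. CDC45, the factor that activates the ring, reached 15.4, 20.7 and 11.2 TPM in SNU1079, against 13.1 TPM with vehicle. It stood at 14.1, 13.3 and 9.49 TPM in SSP25, against 19.9 TPM with vehicle. The GINS subunits, its partners, summed to 59.2, 78.8 and 51.7 TPM in SNU1079, against 57.4 TPM with vehicle, and to 36.5, 39.8 and 24.2 TPM in SSP25, against 49.5 TPM with vehicle. GINS4 stood apart in SSP25: its mTORi level of 11.1 TPM was as high as the 10.9 TPM of vehicle, and its combination level was 4.09 TPM. MCM10, a scaffold of the helicase, was the only member besides POLE2 whose highest SNU1079 library was not mTORi: it had 13.5 TPM with BETp and 12.1 TPM with mTORi, against 9.22 TPM with vehicle.

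Because most members moved together with mTORi, their promoters were read for E2F-like letters. Windows of 250 bases before to 50 after the start, from RefSeq on GRCh38.p14, were matched for 35 of 39 members. The letters searched on both strands were TTTCCCGC, TTTCGCGC, TTTGCCGC and TTTGGCGC, and neighbouring matches may overlap. They occurred in 19 of the 35 windows (54.3%), in 5.35% of the 10417 windows of genes tested here and in 3.31% of all 35116 windows. The CCAAT letters occurred in 20 of the 35 (57.1%), against 36.9% of windows of tested genes and 34.6% of all. The cell cycle homology letters TTTGAA or TTCGAA, known from genes of mitosis, occurred in 2 of the 35 (5.71%), against 11.0% and 16.4%. A match describes letters in a window and is neither a bound site nor a cause. The windows of 4 ring subunits are shown because MCM6 had 4 matches and MCM2, MCM3 and MCM7 had 2 each, and that of thymidine kinase TK1, whose mRNA took the same directions with mTORi, because it had none. They are written 5′ to 3′ along the gene, with the E2F-like letters in capitals.
MCM2 (chr3:127598161-127598460, + strand): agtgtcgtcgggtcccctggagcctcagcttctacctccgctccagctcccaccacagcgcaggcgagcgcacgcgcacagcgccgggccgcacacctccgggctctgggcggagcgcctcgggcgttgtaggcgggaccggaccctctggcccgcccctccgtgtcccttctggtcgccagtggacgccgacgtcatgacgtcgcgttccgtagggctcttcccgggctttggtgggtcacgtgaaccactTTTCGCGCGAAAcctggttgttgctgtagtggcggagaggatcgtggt
MCM3 (chr6:52284693-52284992, - strand): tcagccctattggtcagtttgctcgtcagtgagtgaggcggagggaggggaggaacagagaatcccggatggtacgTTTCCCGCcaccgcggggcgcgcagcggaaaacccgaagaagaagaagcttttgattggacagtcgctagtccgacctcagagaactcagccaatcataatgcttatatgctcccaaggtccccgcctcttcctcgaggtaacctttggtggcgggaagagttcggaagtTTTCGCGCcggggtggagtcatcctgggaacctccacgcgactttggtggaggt
MCM6 (chr2:135876394-135876693, - strand): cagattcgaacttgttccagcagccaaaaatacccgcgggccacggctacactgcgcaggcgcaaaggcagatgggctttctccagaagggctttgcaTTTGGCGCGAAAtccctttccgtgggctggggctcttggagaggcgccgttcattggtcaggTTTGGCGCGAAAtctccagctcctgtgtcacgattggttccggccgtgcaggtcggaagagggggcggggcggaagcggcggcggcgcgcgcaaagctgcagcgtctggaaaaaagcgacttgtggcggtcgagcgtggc
MCM7 (chr7:100101348-100101647, - strand): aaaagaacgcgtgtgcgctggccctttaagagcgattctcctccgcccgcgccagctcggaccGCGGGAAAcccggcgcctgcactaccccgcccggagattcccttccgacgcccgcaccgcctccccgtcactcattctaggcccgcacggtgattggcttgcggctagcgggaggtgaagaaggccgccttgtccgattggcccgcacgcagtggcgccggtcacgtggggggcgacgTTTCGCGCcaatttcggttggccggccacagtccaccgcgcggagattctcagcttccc
TK1 (chr17:78187155-78187454, - strand): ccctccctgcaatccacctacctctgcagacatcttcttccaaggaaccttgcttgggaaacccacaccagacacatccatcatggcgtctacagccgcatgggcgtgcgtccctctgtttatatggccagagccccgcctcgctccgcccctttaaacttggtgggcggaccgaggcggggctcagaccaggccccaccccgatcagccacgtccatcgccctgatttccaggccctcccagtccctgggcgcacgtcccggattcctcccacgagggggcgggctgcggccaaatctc
In MCM2 and MCM6 each capital run holds a match on either strand, and MCM6 carries 2 such runs. RRM2, CHAF1A and CHAF1B, which are among the members of largest differences described here, likewise had no match in their windows. TYMS, RFC3, UHRF1 and LIG1, also among those members, had 1 match each.

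Polymerases and primase had 6 members. PRIM1, the catalytic subunit of primase, had 18.6 TPM with BETp, 28.8 TPM with mTORi and 17.2 TPM with the combination in SNU1079, against 18.3 TPM with vehicle. In SSP25 it had 8.36, 9.23 and 5.98 TPM, against 15.0 TPM with vehicle. POLA1 and POLA2, subunits of polymerase alpha, which extends the primers, stayed between 3.54 and 11.2 TPM and between 10.9 and 29.6 TPM over all libraries. All 3 followed the common course in both lines. POLE, the catalytic subunit of the leading-strand polymerase epsilon, had 17.1, 23.9 and 17.4 TPM in SNU1079, against 17.4 TPM with vehicle. In SSP25 it held 8.16, 6.28 and 8.41 TPM, against 7.71 TPM with vehicle, so that it was the only member higher in the combination than in vehicle there. POLE2, its second subunit, was the only member lower with mTORi than with vehicle in SNU1079. It had 2.17 TPM with BETp, 3.06 TPM with mTORi and 2.07 TPM with the combination, against 3.59 TPM with vehicle, and 7.57, 6.77 and 4.97 TPM in SSP25, against 6.83 TPM with vehicle. POLE2 is also the member of lowest level in SNU1079, where small TPM steps weigh most. POLD1, the catalytic subunit of the lagging-strand polymerase delta, ranged over the SSP25 libraries only from 10.2 to 15.7 TPM.

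PCNA, the sliding clamp, was the most abundant member in every library. It had 253 TPM with BETp, 330 TPM with mTORi and 247 TPM with the combination in SNU1079, against 238 TPM with vehicle. In SSP25 it had 127, 139 and 99.1 TPM, against 168 TPM with vehicle. RFC3, a subunit of the clamp loader, had 12.7, 17.6 and 9.88 TPM in SNU1079, against 12.5 TPM with vehicle. Its SSP25 levels were 18.2, 18.9 and 9.25 TPM, against 24.2 TPM with vehicle, and with the combination that is 0.383-fold of vehicle. RFC2, RFC4 and RFC5, the other loader subunits in the list, held 0.467-fold to 0.551-fold of their vehicle TPM there. RPA2, part of the cover of single-stranded DNA, was the steadiest member of the group: its SSP25 libraries held 27.8 TPM with BETp, 31.7 TPM with mTORi and 28.2 TPM with the combination, against 33.1 TPM with vehicle. Its SNU1079 libraries held 29.4, 37.7 and 27.4 TPM, against 28.9 TPM with vehicle.

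The 2 enzymes that finish Okazaki fragments differed in SSP25. FEN1, the flap endonuclease, had 34.7 TPM with BETp, 36.1 TPM with mTORi and 28.2 TPM with the combination there, against 46.6 TPM with vehicle. LIG1, the ligase that seals the nicks, had 9.72 and 11.7 TPM with the single drugs and 5.10 TPM with the combination, against 10.8 TPM with vehicle. For LIG1 neither drug alone moved the SSP25 level by more than 0.14 in log2(TPM + 1), and the combination lay 0.96 under vehicle. In SNU1079, LIG1 had 31.4, 39.8 and 24.7 TPM, against 31.7 TPM with vehicle, and FEN1 ranged from 23.0 to 31.6 TPM.

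Nucleotide supply held the largest mTORi differences of SNU1079 together with CHAF1A. TYMS, thymidylate synthase, had 87.2 TPM with BETp, 131 TPM with mTORi and 81.4 TPM with the combination in SNU1079, against 77.0 TPM with vehicle. In SSP25 it had 56.6, 63.9 and 36.0 TPM, against 89.7 TPM with vehicle. RRM2, the S phase subunit of ribonucleotide reductase, had 131, 159 and 115 TPM in SNU1079, against 93.8 TPM with vehicle, so all treated libraries lay above vehicle. In SSP25 all lay below it, with 82.3, 60.8 and 47.1 TPM, against 88.7 TPM with vehicle. TK1, thymidine kinase 1, did the same, with 141, 152 and 134 TPM in SNU1079, against 119 TPM with vehicle, and 86.8, 68.9 and 45.1 TPM in SSP25, against 97.2 TPM with vehicle. RRM1, the large subunit, had 29.6, 37.8 and 22.6 TPM in SNU1079, against 30.2 TPM with vehicle. It had 73.3, 86.3 and 57.5 TPM in SSP25, against 105 TPM with vehicle. The ratio of RRM2 to RRM1 mRNA was 3.11 to 5.08 in the SNU1079 libraries and 0.705 to 1.12 in those of SSP25, and these ranges do not overlap.

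Among the regulators, E2F1, the transcription factor of this program and itself one of its targets, had 26.6 TPM with BETp, 31.6 TPM with mTORi and 21.7 TPM with the combination in SNU1079, against 23.8 TPM with vehicle. In SSP25 it had 22.1, 18.5 and 12.9 TPM, against 25.8 TPM with vehicle. UHRF1, which brings the maintenance DNA methyltransferase to new DNA, had 27.7, 39.8 and 21.2 TPM in SNU1079, against 26.2 TPM with vehicle, and 8.91, 10.6 and 5.68 TPM in SSP25, against 13.3 TPM with vehicle. In both genes mTORi was the highest library of SNU1079 and the combination the lowest of each line. CHAF1A and CHAF1B encode subunits of the factor that places histones on new DNA, yet they differed in size with mTORi in SNU1079. CHAF1A had 17.8, 28.2 and 17.98 TPM in SNU1079, against 16.2 TPM with vehicle, and CHAF1B had 11.8, 13.5 and 10.8 TPM, against 12.1 TPM with vehicle. In SSP25, CHAF1B showed the largest difference of any member: it had 9.87 TPM with BETp, 7.79 TPM with mTORi and 4.67 TPM with the combination, against 13.9 TPM with vehicle. CHAF1A was lower there too, with 13.4, 13.2 and 9.45 TPM, against 17.9 TPM with vehicle.

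**Figure D2:**
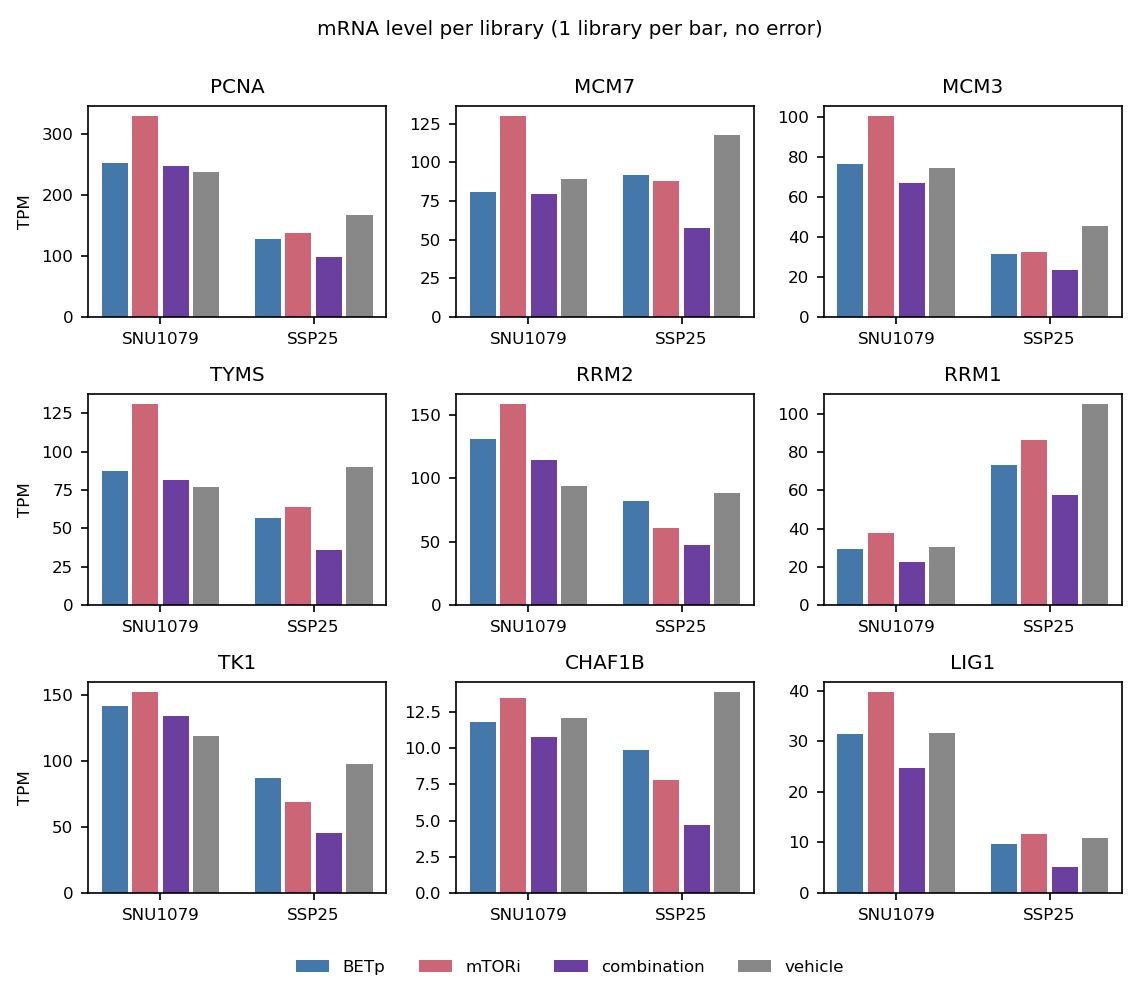
TPM of 9 members in each of the 8 libraries, with SNU1079 on the left and SSP25 on the right of each panel and bars for BETp, mTORi, combination and vehicle in that order. The mTORi bar is the tallest of SNU1079 in all 9 panels, and the combination bar is the shortest of SSP25. Each bar is 1 library and has no error.

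The question of which treatments moved these genes in both lines was put to a linear model on log2(TPM + 1) over all 16060 genes (limma, treatment and cell line as terms, Benjamini-Hochberg adjustment, calls at an adjusted p under 0.05). For the combination against vehicle, 0 of 39 members passed, against 1.81% of all genes. An unadjusted p under 0.05 was found for 20 members and for 4148 of all 16060 genes. The estimates ran from -0.83 to 0.06 with a median of -0.54, against -0.19 over all genes. They were negative for 38 of 39 members, with POLE the exception, and for 11724 of all 16060 genes. By the rule for naming, MCM4 (-0.83 ± 0.19 SE, limma adjusted p = 0.0676), RFC3 (-0.81 ± 0.23, adjusted p = 0.0990) and CHAF1B (-0.77 ± 0.28, adjusted p = 0.149) had the largest differences shared by both lines. MCM4 had 58.3 TPM with BETp, 88.8 TPM with mTORi and 49.9 TPM with the combination in SNU1079, against 73.5 TPM with vehicle, and 50.3, 48.8 and 30.6 TPM in SSP25, against 67.5 TPM with vehicle. It was 1 of 2 members, with POLE2, whose SNU1079 combination library lay past the descriptive threshold of 0.5 under vehicle. Without the vehicle library of SNU1079 the members' median for this comparison was -0.88, and without that of SSP25 it was -0.20. With quantile normalization, which removes the shift of all genes, it was -0.29 with 2 positive members, and with TPM rescaled without genes of the mitochondrial genome it was -0.47.

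With single drugs the model found no call either. For BETp against vehicle 0 of 39 members passed, against 0.00623% of all genes, and 0 had an unadjusted p under 0.05, against 1429 of all 16060 genes. The median was -0.20, but it was -0.54 without the vehicle library of SNU1079 and 0.13 without that of SSP25, and -0.12 with quantile normalization. CDT1 (-0.39 ± 0.23 SE), MCM4 (-0.37 ± 0.19) and MCM2 (-0.32 ± 0.17) had the largest shared differences, with limma adjusted p of 0.651, 0.622 and 0.641. For mTORi against vehicle 0 of 39 passed, against 0.0125% of all genes, with 0 at an unadjusted p under 0.05, against 1658 of all 16060 genes. Its median of -0.0025 averages the opposite directions of the lines, and 19 members were positive, against 4856 of all 16060 genes. The members' count became 36 with quantile normalization, with a median of 0.15. Without the vehicle or mTORi library of SNU1079 the median was -0.33 or -0.21, and without those of SSP25 it was 0.34 or 0.20. Only GINS4 (0.33 ± 0.33), LIG1 (0.21 ± 0.17) and POLE2 (-0.09 ± 0.20) took 1 direction in both lines, with limma adjusted p of 0.763, 0.695 and 0.900. Averaged over the other drug in a model with a term for each drug and for the line, the BETp effect had a median of -0.37. It was negative for 39 of 39 members and for 10267 of all 16060 genes. Of the members 0 passed, against 1.82% of all genes, and 18 had an unadjusted p under 0.05, as had 3664 of all 16060 genes. Without the SNU1079 vehicle library, however, 9 members were called lower, where 1.05% of all genes were. The mTORi effect averaged the same way had a median of -0.17, 0 calls against 1.05% of all genes, and 0 unadjusted p under 0.05, against 3534 of all 16060 genes. It was positive for 3 members as deposited, against 4319 of all 16060 genes, and for 16 members with quantile normalization, where their median was -0.02. Without the vehicle or the mTORi library of SNU1079 the median was -0.34 or -0.29, and without the vehicle, BETp or combination library of SSP25 it was -0.11, -0.10 or -0.07.

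The combination was also set against each drug. Against mTORi the median was -0.53 (-0.30 without the mTORi library of SNU1079, -0.35 without the combination library of SSP25). All 39 estimates were negative, against 9970 of all 16060 genes. Lower in both lines were 38 of 39 members, against 38.6% of all genes, with POLE the exception. None passed the limma test, against 0.0125% of all genes, but 19 had an unadjusted p under 0.05, as had 2145 of all 16060 genes. LIG1 (-0.86 ± 0.17 SE, limma adjusted p = 0.178), RFC3 (-0.86 ± 0.23, adjusted p = 0.242) and UHRF1 (-0.83 ± 0.22, adjusted p = 0.229) had the largest shared differences. In SNU1079 this comparison uses the same mTORi library that stood above vehicle, so the mTORi values enter both. Past the threshold of 0.5, 25 members were lower than with mTORi in SNU1079 and 19 in SSP25, against 12.1% of all genes in each. Against BETp the median was -0.35 (-0.21 without the combination library of SSP25, -0.19 with quantile normalization), and 0 members passed, against 0.00% of all genes. An unadjusted p under 0.05 was found for 4 members and for 1840 of all 16060 genes, so the members' share was no higher. There MCM10 (-0.70 ± 0.25), RFC3 (-0.62 ± 0.23) and LIG1 (-0.58 ± 0.17) led, with limma adjusted p of 0.409, 0.411 and 0.363. The departure from additivity, which subtracts the effects of BETp and mTORi alone from that of the combination, was negative for 39 of 39 members and for 8282 of all 16060 genes. The members' median was -0.34. That median was -0.02 without the vehicle library of SNU1079, -0.11 without its mTORi library and -0.18 without the combination library of SSP25, and it was -0.67 and -0.58 without the vehicle and the mTORi library of SSP25, so its size rests on single libraries. None passed limma, against 0.00% of all genes, and 1 member, LIG1, had an unadjusted p under 0.05, as had 322 of all 16060 genes. By line, 26 members lay more than 0.5 under the sum of both drugs in SNU1079, against 9.20% of all genes, and 4 did in SSP25 (GINS4, POLE2, RFC3 and LIG1), against 7.52%. The medians were -0.65 in SNU1079 and -0.13 in SSP25. With mTORi alone high in SNU1079, its sum is high too, and the same library enters this value.

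**Figure D3:**
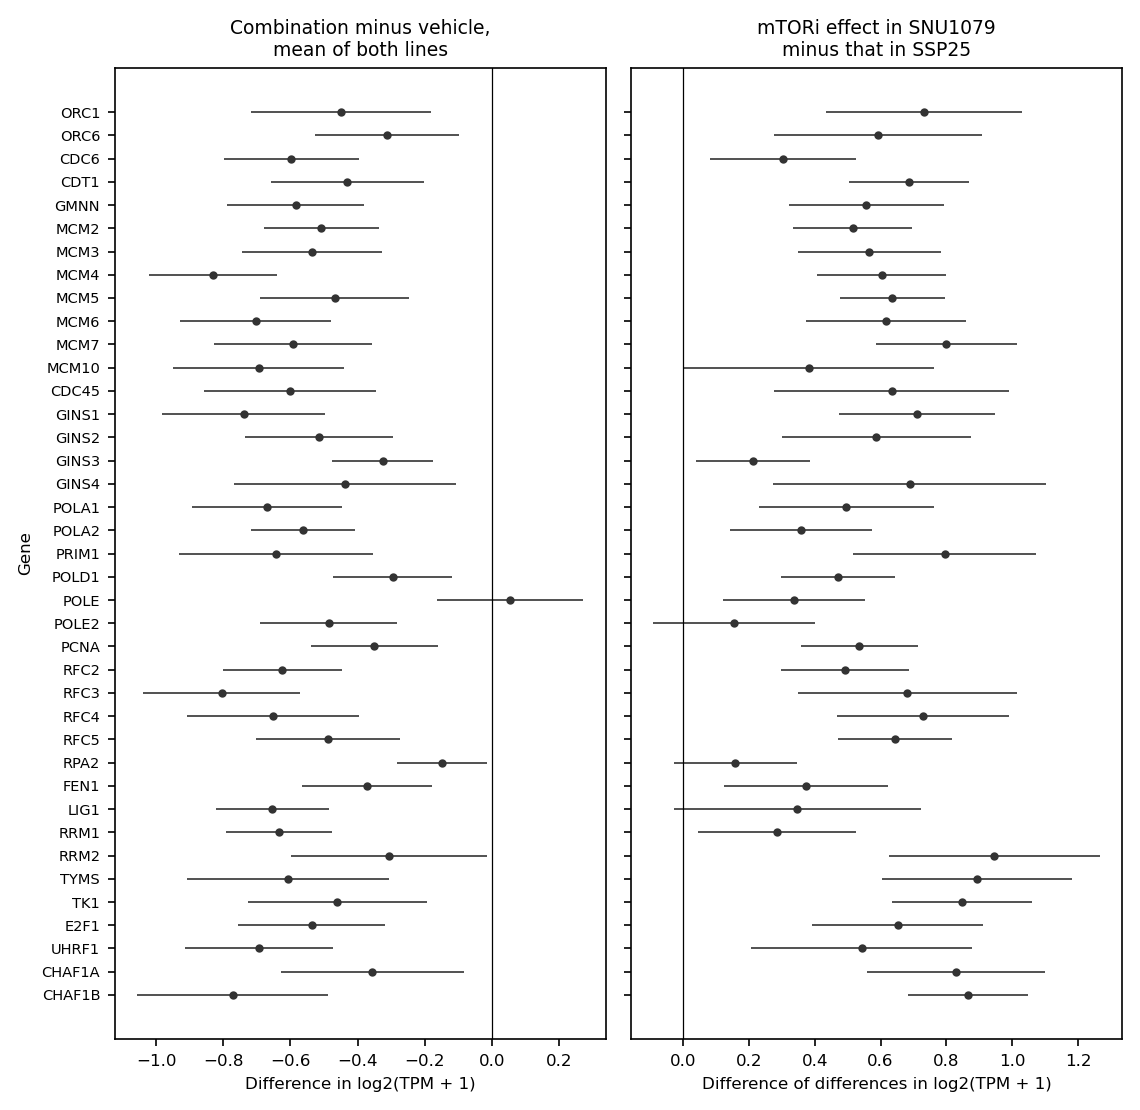
limma estimates and their standard errors (whiskers) for the 39 members, in log2(TPM + 1). On the left, the combination against vehicle over both lines lies under 0 for all members but POLE, and on the right, the mTORi effect in SNU1079 minus that in SSP25 lies above 0 for all 39, although no member passed the adjusted threshold in either.

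Within each line the differences were described with no test, by how many members lay at least 0.5 in log2(TPM + 1), or 1.414-fold in TPM + 1, from vehicle. In SNU1079 mTORi lay above vehicle by that much for 11 members, against 4.58% of all genes, and under it for 0, against 10.4%. The 11 were CDT1, ORC6, MCM7, CDC45, GINS2, GINS4, PRIM1, RRM2, TYMS, UHRF1 and CHAF1A, and they came from 5 of the 7 role groups. In that line mTORi was the highest of the 4 treatments for 37 of 39 members, against 20.6% of all genes, a count that stayed at 37 with either rescaling. BETp in SNU1079 was past the threshold for 2 members upward (MCM10 and GINS4), against 5.34%, and for 1 downward (POLE2), against 8.36%. For the combination in SNU1079, 0 members lay past it upward, against 5.34%, and 2 downward, against 19.1%. With quantile normalization 22 members lay past it upward with mTORi, against 7.20% of all genes, and for the combination 2 did upward, against 10.3%, and 0 downward, against 10.9%. The combination library was the lowest of SNU1079 for 28 of 39 members, against 43.6%, but for 14 of 39, against 25.0% of all genes, with quantile normalization, where the members' median against vehicle was 0.05 in place of -0.16. The direction of the combination in SNU1079 thus depends on the scaling, and that of mTORi was positive for 38 of 39 members with each.

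In SSP25 the combination lay past the threshold downward for 35 of 39 members, against 21.1% of all genes, and upward for 0, against 6.43%. The exceptions were POLD1, POLE, POLE2 and RPA2. It was the lowest of the 4 treatments for 37 of 39, against 39.2%, and vehicle was the highest for 34 of 39, against 44.1%. With quantile normalization 31 members lay past the threshold, against 11.6% of all genes, and the combination was lowest for 37, against 25.7%. Single drugs gave less: BETp was past it downward for 12 members, against 10.2%, and mTORi for 10, against 10.4%, with 0 upward for BETp, against 4.77%, and 0 for mTORi, against 4.78%. With quantile normalization the counts were 3 for BETp, against 6.36%, and 2 for mTORi, against 5.57%, so the single-drug counts depend on the scaling. RFC4 had the largest BETp and mTORi differences of the loader, with 39.01 TPM with BETp, 34.7 TPM with mTORi and 27.4 TPM with the combination, against 58.7 TPM with vehicle.

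The lines were compared in their response. mTORi stood above vehicle in SNU1079 and under it in SSP25 for 36 of 39 members, against 20.3% of all genes, with GINS4, POLE2 and LIG1 as exceptions. For BETp the same held for 23 of 39, against 22.8%. For the combination it held for 9 of 39, against 13.7%, while 29 of 39 were lower in both lines, against 51.0%. With quantile normalization the combination counts were 21 of 39 opposite, against 18.0% of all genes, and 16 of 39 lower in both, against 27.8%, and the SNU1079 median was then above 0. In a model with terms for each line's drug effects (2 residual degrees of freedom), the mTORi effect averaged over BETp was larger in SNU1079 than in SSP25 for 39 of 39 members. The same held for 7447 of all 16060 genes. The members' median difference was 0.59, against -0.03 over all genes. No member passed limma, against 0.00% of all genes, and 17 had an unadjusted p under 0.05, as had 2282 of all 16060 genes. The smallest adjusted p was that of CHAF1B (0.86 ± 0.18 SE, limma adjusted p = 0.238), and MCM5, TK1, CDT1 and MCM7 came next with differences of 0.64, 0.85, 0.69 and 0.80. The members' median was 0.29 without the vehicle or the mTORi library of SNU1079 and 0.89 without its BETp or combination library, and it was 0.52 to 0.62 without single SSP25 libraries. For BETp the line difference had a median of 0.17, 0 calls, against 0.00623% of all genes, and 0 unadjusted p under 0.05, against 1984 of all 16060 genes. Its sign turned with 1 library, to a median of -0.17 without the vehicle or the BETp library of SNU1079, and it was 0.52 without the mTORi or the combination library of that line and 0.11 with quantile normalization.

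**Figure D4:**
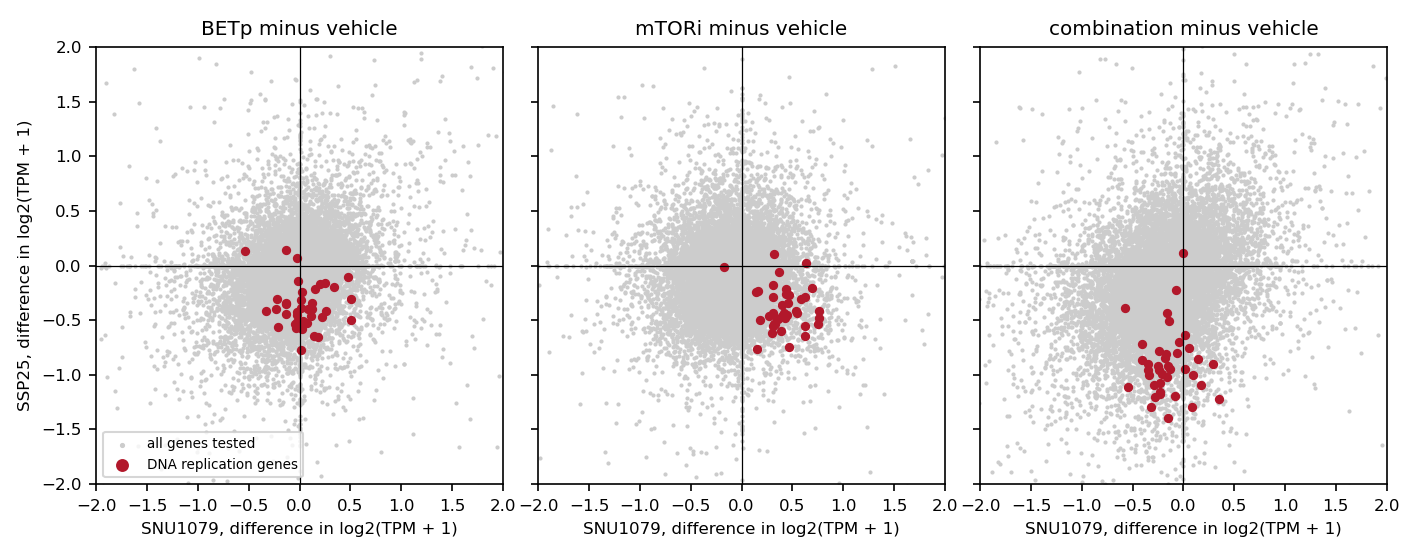
Difference from vehicle in SNU1079 (x axis) against that in SSP25 (y axis), in log2(TPM + 1), for BETp, mTORi and the combination, with all genes tested in grey and the 39 members in red, drawn from -2 to 2. With mTORi 36 of 39 members lie in the lower right field, and with the combination 38 of 39 lie under 0 in SSP25 while their SNU1079 values straddle 0.

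Apart from the drugs, the lines differed in level. With the 4 treatments standing as the replicates of a line, 26 of 39 members differed between SNU1079 and SSP25 in limma, 21 higher in SNU1079 and 5 lower, against 74.0% of all genes, so the share of members is no higher than that of all genes. The median was 0.46, against 0.05 over all genes. LIG1 (chr19:48618702-48673860 on GRCh37, minus strand) led with 1.71 ± 0.12 SE (limma adjusted p = 1.46e-05) and levels of 24.7 to 39.8 TPM in SNU1079 and 5.10 to 11.7 TPM in SSP25. POLD1 (1.40 ± 0.13), MCM6 (1.57 ± 0.16), UHRF1 (1.503 ± 0.155), MCM3 (1.25 ± 0.15), GINS2 (1.27 ± 0.16), POLE (1.20 ± 0.15) and PCNA (1.01 ± 0.13) followed, with limma adjusted p of at most 0.000371. MCM3 had at least 67.2 TPM in SNU1079 and at most 45.8 TPM in SSP25, and PCNA at least 238 TPM and at most 168 TPM. RRM1 (chr11:4115937-4160162, plus strand) went the other way, with -1.38 ± 0.11 SE (limma adjusted p = 2.87e-05) and 22.6 to 37.8 TPM in SNU1079, against 57.5 to 105 TPM in SSP25. POLE2 (-1.03 ± 0.14), POLA2 (-0.74 ± 0.11), POLA1 (-0.58 ± 0.16) and FEN1 (-0.42 ± 0.14) were also lower in SNU1079, and the FEN1 call was lost under 5 of 14 alternatives, among them leaving out either vehicle library. The accessory subunit POLE2 was thus lower and the catalytic subunit POLE of the same polymerase higher in SNU1079. MCM2, MCM5 and MCM7 did not pass, with estimates of 0.22 ± 0.12, 0.05 ± 0.16 and 0.12 ± 0.17, though MCM3, MCM4 and MCM6 of the same ring did.

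**Figure D5:**
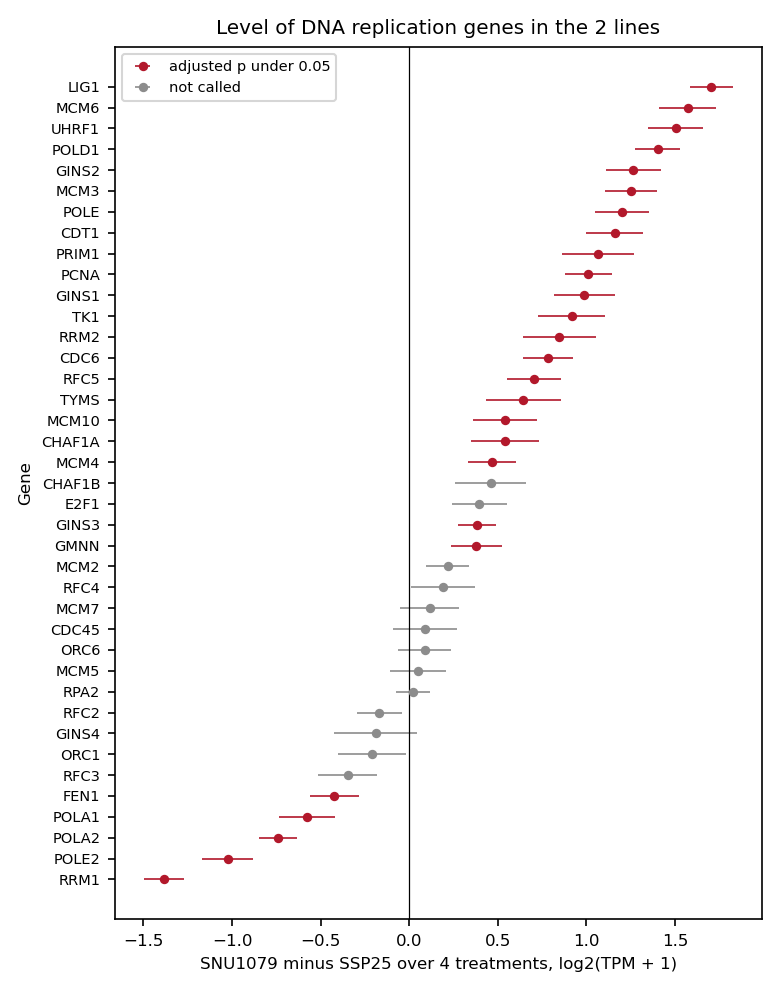
SNU1079 minus SSP25 in log2(TPM + 1) over the 4 treatments, as limma estimates with standard errors (whiskers), with called members in red and the others in grey. Of the 26 called, 21 lie above 0, led by LIG1 at 1.71, and 5 lie below, led by RRM1 at -1.38.

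Genes around the list were counted in the same fits. Of 48 other replication and nucleotide genes, 2 passed limma as lower in the combination than in vehicle. They were DNMT1 (-0.80 ± 0.13 SE, adjusted p = 0.0438), the maintenance DNA methyltransferase that UHRF1 guides, and TK2 (-0.72 ± 0.12, adjusted p = 0.0438), a mitochondrial thymidine kinase. Each of these calls was lost under 13 of 14 alternatives that kept the line as a block, with limma adjusted p between 0.0313 and 0.165 for DNMT1 and between 0.0313 and 0.171 for TK2. DNMT1 had 45.7 TPM with BETp, 47.7 TPM with mTORi and 27.6 TPM with the combination in SNU1079, against 50.0 TPM with vehicle, and 33.8, 26.5 and 18.5 TPM in SSP25, against 32.0 TPM with vehicle. The combination library was the lowest in both lines. TK2 was also lower with BETp averaged over mTORi (-0.69 ± 0.07, limma adjusted p = 0.00889), a call lost without the combination library of SNU1079 (limma adjusted p = 0.0523). TK1, a member, had a positive difference from vehicle in every treated SNU1079 library and a negative one in every treated SSP25 library. In the mTORi library of SNU1079, 36 of these 48 genes lay above vehicle with a median of 0.27, and in that of SSP25 46 lay under it with a median of -0.38. Of all genes tested, 20.3% took both of these directions.

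Of 29 tested genes that control entry into S phase, CCND3, which encodes cyclin D3, was lower in the combination than in vehicle (-0.97 ± 0.10 SE, limma adjusted p = 0.0315) and no other passed. It was also lower with mTORi averaged over BETp (-0.61 ± 0.07, limma adjusted p = 0.0290) and with BETp averaged over mTORi (-0.36 ± 0.07, limma adjusted p = 0.0446). These 3 calls were lost under 9, 11 and 12 of 14 alternatives, in that order, with limma adjusted p of at most 0.140. It had 63.4 TPM with BETp, 49.8 TPM with mTORi and 39.1 TPM with the combination in SNU1079, against 78.1 TPM with vehicle. In SSP25 it had 61.4, 55.0 and 39.6 TPM, against 77.6 TPM with vehicle. CCND3 was thus lower with mTORi in SNU1079, where the replication genes were higher. CDKN1A, the p21 inhibitor of cyclin-dependent kinases, was higher in every treated SSP25 library, with 80.8 TPM with BETp, 61.1 TPM with mTORi and 114 TPM with the combination, against 46.9 TPM with vehicle. In SNU1079 it was lower in every treated library, with 447, 360 and 412 TPM, against 488 TPM with vehicle. With mTORi the direction of CDKN1A was opposite to that of the members' sum in both lines, as values of 1 library each. It was also opposite with BETp in both lines and with the combination in SSP25. With the combination in SNU1079 both lay under vehicle, the members' sum at 1453 TPM against 1540 TPM. Other inhibitors of these kinases differed from CDKN1A. With mTORi CDKN2C and CDKN2D took the direction of the members' sum in both lines, and CDKN1B was lower in both. CDKN1C, CDKN2A and CDKN2B were at most 0.27 TPM in SNU1079. In SSP25 mTORi was higher for CDKN1C and CDKN2A and lower for CDKN2B. A link of any inhibitor to the members was not tested. CCNE2, a cyclin of the G1/S step, had 9.62, 14.0 and 5.63 TPM in SNU1079, against 8.17 TPM with vehicle, and 3.65, 5.22 and 3.91 TPM in SSP25, against 6.40 TPM with vehicle. CCND1 had 408, 516 and 523 TPM in SNU1079, against 391 TPM with vehicle. In SSP25 it had 51.8, 59.2 and 76.3 TPM, against 52.4 TPM with vehicle. CCNE1 was between 7.95 and 15.7 TPM in all libraries, RB1 between 15.7 and 25.9 TPM, CCNA2 between 14.7 and 46.4 TPM and MKI67 between 10.6 and 24.2 TPM.

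Measures that moved with these results are given as they stood. A list of 37 mitosis genes moved the same way and further: with mTORi 37 of 37 were higher in SNU1079 (median 0.71) and 37 of 37 lower in SSP25 (median -0.56). With the combination 37 of 37 were lower in SSP25, with a median of -1.27, and 34 of 37 in SNU1079, with a median of -0.23. Of all genes, 20.3% were higher with mTORi in SNU1079 and lower in SSP25, and 51.0% were lower with the combination in both lines. The values of this list are as deposited, and for the members the direction of the combination in SNU1079 depended on the scaling. The share of TPM from the mitochondrial genome in SNU1079 was 17.1% with BETp, 15.3% with mTORi and 19.2% when both were given, against 14.4% with vehicle. In SSP25 it was 7.22%, 8.64% and 10.1%, against 5.99% with vehicle. After rescaling without those genes 34 members lay past the threshold in the SSP25 combination, against 18.4% of all genes, and 11 in the SNU1079 mTORi library, against 4.97%. The study stained both lines with propidium iodide at 48 h. It reported smaller S and G2/M fractions and a larger G0/G1 fraction with the combination than with single drugs. Those measures were not joined to the RNA values here, and the part of the share of dividing cells in the results was not tested. The label of cholangiocarcinoma was set against marker lists: the 9 biliary epithelial markers summed to 7958 to 11478 TPM in SNU1079 and to 3281 to 3847 TPM in SSP25. The 7 hepatocyte markers summed to 8.89 to 46.9 TPM in SNU1079, with no marker but SERPINA1 over 2.23 TPM, and to at most 0.690 TPM in SSP25, with ALB, APOB and TTR at 0 there. The 8 fibroblast markers summed to 275 to 1004 TPM in SNU1079, where COL1A1 made up nearly all of the sum, no other marker passed 1.84 TPM and THY1 and DCN were at 0, and to 22.7 to 41.8 TPM in SSP25. The 5 endothelial markers reached at most 3.07 TPM and the 7 blood cell markers at most 32.7 TPM in any library, of which CD14 held up to 32.4 TPM and no other more than 0.270 TPM. Whether these levels bear on the replication genes was not tested.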

How the data were processed

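RNA from 8 cultures was made into strand-specific (dUTP) libraries, 1 per line and treatment. TPM values per gene were deposited by the authors in a table for each line. The labels give GRCh37 as the build and name DESeq2 and edgeR, with the aligner, the annotation and any use of strand in counting not given in the sources used here, so genes that overlap a neighbour (TYMS with ENOSF1, MCM7 with AP4M1, PRIM1 with NACA, FEN1 with FADS2) or have named pseudogenes (PCNA, RPA2, RRM2, TYMS) are uncertain. The same uncertainty holds for CHAF1B (with MORC3), POLA2 and POLD1, which overlap a neighbour on the same strand. It also holds for GINS1 (with NINL), GINS2 (with GSE1), RFC4 (with EIF4A2), RFC5 (with WSB2) and CHAF1A (with UBXN6), on the opposite strand. ORC1, RFC3, RFC5 and FEN1 likewise have named pseudogenes. TPM totals ran from 998559 to 999362, and no depth, interval or floor can be given.

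Columns were matched to samples by title. Values were transformed to log2(TPM + 1), and 16060 genes that reached 1 TPM in 2 or more libraries were fitted with limma 3.58.1 in R 4.3.3 (eBayes with trend, two-sided p, Benjamini-Hochberg adjustment over all genes of a comparison). The fits had treatment and line (3 residual degrees of freedom), line, BETp and mTORi (4) or line-by-drug terms (2). The residual of the last is the departure from additivity within each line, and that of the fit with 4 takes in this departure too. Line served as the block: deviations of libraries from treatment means correlated at 0.911 to 0.936 within a line. Differences within a line have no test and were read at 0.5.

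Named in full were called members, at most 8 in each direction of smallest p, and otherwise the 3 largest changes shared by both lines, and called genes of other lists. Members and lists were chosen with earlier results of these data known. Alternatives were a pseudocount of 0.1 TPM, no filter or a filter at 5 TPM, quantile normalization, rescaling without mitochondrial genes, robust eBayes, no block and leaving out each library.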

Additional observations from a re-analysis of the deposited data

Results flagged for a closer look

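For mTORi, 36 of 39 members stood above vehicle in SNU1079 and under vehicle in SSP25, the opposite direction in each line, against 20.3% of all genes. This count drew attention because the lines, with 1 library each per treatment, moved apart. The difference was not tested for mTORi against vehicle alone. In the averaged test of the line difference no member was called by limma, with 17 at an unadjusted p under 0.05, as were 2282 of all 16060 genes.

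For BETp, 23 of 39 members stood above vehicle in SNU1079 and under it in SSP25, against 22.8% of all genes. That difference was likewise not tested for BETp alone, and the averaged test gave 0 calls with limma and 0 unadjusted p under 0.05, against 1984 of all 16060 genes.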

How the results depend on the processing

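For the drug comparisons, 0 members were called by limma under every alternative, without the block included, except that the averaged BETp effect had 0 to 9 lower calls when libraries were left out in turn, with 9 without the SNU1079 vehicle library. The cause was not tested. SNU1079 against SSP25 gave 20 to 29 called members without single libraries. No line has replicate libraries of a treatment, TPM keeps no depth, and the lines stand in as the only replicates of a treatment.

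With quantile normalization, members past 0.5 within a line numbered 22 with mTORi higher in SNU1079 (11 as deposited), against 7.20% of all genes, 2 with the combination higher (0), against 10.3%, and 0 lower (2), against 10.9%. In SSP25 they were 3 with BETp lower (12), against 6.36%, and 2 with mTORi lower (10), against 5.57%, both near the share of all genes. Rescaled without mitochondrial genes, 1 was lower with the combination in SNU1079, against 16.2%. These alternatives remove part of the shift of all genes by construction. For mTORi against vehicle, POLE2 was 0.032 with quantile normalization and -0.26 to 0.076 without single libraries, and GINS4 was -0.17 to 0.83. Of the values for named genes under the alternatives, 497 kept direction and side of the threshold, 70 lost the call and 3 changed sign. The 497 include members that had no call to lose and differences between the lines, so they do not measure how drug calls held. The lost calls were 5 of FEN1 between the lines, and the others were of DNMT1, TK2 and CCND3. For the combination, the DNMT1 and TK2 calls were each lost under 13 of 14 alternatives that kept the block, and the CCND3 call under 9. The averaged CCND3 calls were lost under 11 (mTORi) and 12 (BETp), and the averaged TK2 call (BETp) under 1.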
